A study of Mus musculus with 12 samples.

Results

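The 8 genes described here encode enzymes that make, store or break down glucose in the liver: Pklr, Aldoc and Pfkfb3 of glycolysis, Pcx, Pck1 and Fbp1 of gluconeogenesis, and Gys2 and Pygl of glycogen metabolism. The genes were chosen with earlier results of these data known. Their probe sets were taken by symbol, as every probe set whose only annotated gene was a member, which gave 18 of the 45101 on the array. Of these, 14 were tested and 4, all designed on Pcx, belong to the manufacturer's control probe sets. Lung and liver came from female NOD/SCID mice, which lack mature T and B lymphocytes. The mice were 8 to 10 weeks old when the experiments began. Each tissue was taken from virgin mice and from mice at day 16 of pregnancy, which gave 4 groups. Each group had 3 one-colour arrays, and each array measured RNA pooled from 2 mice. The p-values therefore reflect how pools vary, not single mice, and precision is limited by having so few arrays. Nothing in the labels says that a lung pool and a liver pool came from the same mice.

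In the liver, glycolysis splits glucose to pyruvate and gluconeogenesis runs the path backwards, with separate enzymes at the steps that cannot be reversed. Pyruvate kinase closes glycolysis, while pyruvate carboxylase, phosphoenolpyruvate carboxykinase and fructose bisphosphatase carry the return path. Insulin and feeding favour glycolysis and glycogen storage, and glucagon and fasting favour glucose release. In pregnancy the mother's liver also supplies glucose to the fetus.

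Values are log2 expression levels as deposited, so a difference of 1 is a doubling, and levels of different probe sets cannot be set against each other. Array medians over all tested probe sets lay between 4.491 and 4.555, and a level near or below these is not shown to exceed background. Differences were tested with limma in a single fit to all 45037 non-control probe sets, and a probe set was called when its Benjamini-Hochberg adjusted p was under 0.05. Arrays within a group correlated at 0.9917 to 0.9961 over these probe sets. The poly-A RNA spiked in as a control (15 probe sets) averaged 9.86 to 10.38 on 10 arrays, but 4.44 and 4.86 on the arrays of virgin and pregnant liver pool 3. Liver changes of the members, and of other genes where the sizes differed by over 1.5 times, are therefore also given within pools 1 and 2 and within pool 3. Liver identity was clear, since all 8 hepatocyte markers were measured and their summed linear signal was 120141 to 123689 on liver arrays and 165 to 314 on lung arrays.

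In pregnant liver 4 of the 8 genes passed the test: Pklr, Aldoc and Pygl fell and Gys2 rose. At the level of probe sets, 4 of 14 fell, 1 rose and 9 did not pass, or 35.7% called. Over all tested probe sets 8.16% were called in liver, 3.7% higher and 4.46% lower in pregnancy. A separate fit kept only the 22371 probe sets with a mean level of at least 5 in some group. There 19.0% were called, and 7 of the 12 member probe sets it kept. The median liver change of the 14 was -0.32, against 0.001 over all probe sets. Virgin and pregnant arrays did not overlap for 10 of the 14 (71.4%), compared with 22.6% of all probe sets. Since the members were chosen with earlier results known, these shares do not test for an excess over all probe sets. In lung none of the 14 passed the limma test. In bulk tissue, fewer cells of a type and less RNA per cell cannot be told apart.

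**Figure D1:**
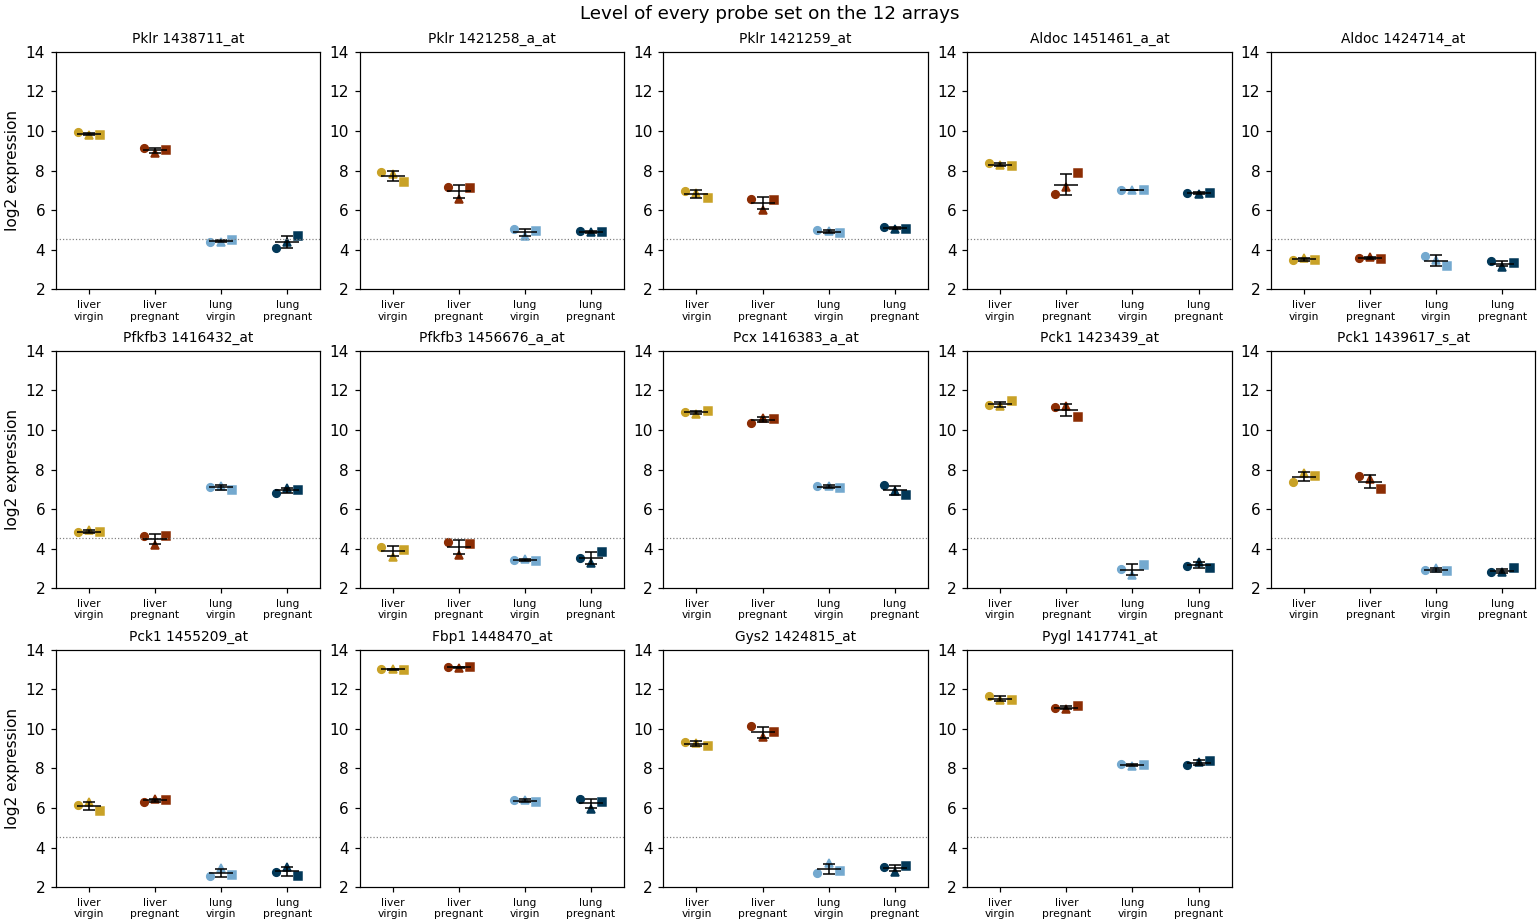
Log2 expression (y axis) of the 14 tested probe sets in the 4 groups (x axis); circles, triangles and squares are pools 1, 2 and 3, black bars the mean and SD of 3 arrays, and the dotted line the median of all probe sets, 4.528. Pklr 1438711_at lies at 9.82 to 9.93 in virgin and 8.90 to 9.16 in pregnant liver, and Gys2 lies at 9.12 to 9.36 and 9.57 to 10.13.

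Pklr encodes the pyruvate kinase of liver and red cells, which makes pyruvate from phosphoenolpyruvate at the end of glycolysis. Its brightest probe set, 1438711_at, read 9.93, 9.82 and 9.82 on the virgin liver arrays and 9.16, 8.90 and 9.02 on the pregnant ones. All pregnant arrays lay below all virgin ones. The level was 9.86 ± 0.064 in virgin and 9.03 ± 0.13 in pregnant liver (SD, n = 3), a 1.78-fold fall (log2 change -0.83 ± 0.13, SE, limma adjusted p = 0.000787). The change was nearly the same within pools 1 and 2 (-0.84) and within pool 3 (-0.80), and it passed in each of the 12 fits that left out 1 array.

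The other Pklr probe sets moved the same way but less evenly. Probe set 1421258_a_at read 7.92, 7.83 and 7.45 in virgin and 7.16, 6.59 and 7.13 in pregnant liver, and it fell by 0.77 ± 0.16 (log2, SE, adjusted p = 0.00642). Probe set 1421259_at read 6.96, 6.87 and 6.61 against 6.56, 5.99 and 6.52, and its change of -0.46 ± 0.14 missed the threshold (adjusted p = 0.0621). For both, the groups did not overlap, and the change was larger within pools 1 and 2 (-1.0 and -0.64) than within pool 3 (-0.31 and -0.10). Probe set 1421259_at passed without virgin liver pool 3 (adjusted p = 0.0435), without pregnant liver pool 1 (0.0393), without pregnant liver pool 3 (0.0465), without both pool 3 arrays (-0.64, 0.0328) and in the fit without dim probe sets (0.0375), with adjusted p of 0.0328 to 0.218 over all alternatives.

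RefSeq promoter windows were found for 7 of the 8 genes, 11 in all, and Gys2 had none. Pklr has a pair of start sites, and the windows from 250 bases before to 50 bases after each are shown because this gene had the lowest adjusted p among the members in liver. The upstream start gives the red cell form and the downstream start the liver form. Capitals mark matches to 7 motifs searched on both strands: the TATA box TATAAA, the E box CACGTG, the carbohydrate response element (a pair of E-box-like motifs with a fixed gap, given by name), the cyclic AMP response half-site TGACG, the HNF1 half-site GTTAAT, the STAT site TTCNNNGAA and the FOX site TGTTTAC. The windows lie on the plus strand of GRCm38.p6, at chr3:89135892-89136191 and chr3:89136373-89136672.
Pklr upstream start: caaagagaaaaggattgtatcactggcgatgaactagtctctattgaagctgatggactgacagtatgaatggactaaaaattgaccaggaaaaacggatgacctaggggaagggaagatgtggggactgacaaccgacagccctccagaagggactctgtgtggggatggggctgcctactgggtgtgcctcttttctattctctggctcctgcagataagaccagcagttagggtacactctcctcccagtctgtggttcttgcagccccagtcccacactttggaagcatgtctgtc
Pklr downstream start: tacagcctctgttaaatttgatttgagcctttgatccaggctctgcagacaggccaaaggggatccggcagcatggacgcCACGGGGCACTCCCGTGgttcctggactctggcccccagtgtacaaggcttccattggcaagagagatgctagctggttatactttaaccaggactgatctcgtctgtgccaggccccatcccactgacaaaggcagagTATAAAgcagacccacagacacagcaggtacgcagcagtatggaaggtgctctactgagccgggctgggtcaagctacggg
The downstream window held a carbohydrate response element whose first base lies at -170 from the start, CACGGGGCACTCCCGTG, and a TATA box at -31. Among 32851 RefSeq windows of this length, 0.119% held the former and 13.6% the latter. None of the 7 motifs occurred in the upstream window. A match describes the letters and does not show that a factor binds there.

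Aldoc encodes aldolase C, an isozyme of the enzyme that splits fructose bisphosphate and best known from brain. Probe set 1451461_a_at read 8.37, 8.26 and 8.24 in virgin liver and 6.81, 7.17 and 7.86 in pregnant liver. The groups did not overlap, but the pregnant arrays were far apart, with pool 3 closest to the virgin level. The mean went from 8.29 ± 0.067 to 7.28 ± 0.53 (SD, n = 3), a 2.02-fold fall (log2 -1.01 ± 0.18, SE, adjusted p = 0.00233). Pools 1 and 2 gave a mean change of -1.32 and pool 3 one of -0.39. Over all alternatives the change ran from -1.32 to -0.78 with an adjusted p of at most 0.0275. The second Aldoc probe set, 1424714_at, stayed between 3.14 and 3.69 on all 12 arrays, where signal above background is not shown, and its liver change was 0.07 (95% interval -0.19 to 0.34).

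Aldoc also has a pair of RefSeq starts, on the plus strand of chromosome 11. The downstream window is shown because Aldoc had the largest liver fall among the members and this window held 3 matches, while the upstream window held none. It covers chr11:78323948-78324247 of GRCm38.p6, and capitals mark a FOX site at -148 and STAT sites at -124 and -83.
Aldoc downstream start: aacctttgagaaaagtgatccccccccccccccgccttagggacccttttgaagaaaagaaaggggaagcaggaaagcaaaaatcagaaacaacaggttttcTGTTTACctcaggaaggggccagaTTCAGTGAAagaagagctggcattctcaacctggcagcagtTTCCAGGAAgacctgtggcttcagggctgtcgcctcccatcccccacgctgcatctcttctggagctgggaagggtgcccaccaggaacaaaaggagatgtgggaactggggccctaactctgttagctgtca
Of all windows a STAT site occurred in 8.3% and a FOX site in 3.65%. Which start the liver uses was not measured by these probe sets.

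Pfkfb3 encodes a bifunctional enzyme that makes and removes the fructose bisphosphate that activates phosphofructokinase. Probe set 1416432_at was dim in liver, at 4.82, 4.94 and 4.82 in virgin and 4.66, 4.21 and 4.62 in pregnant animals. The groups did not overlap, but the difference of -0.36 ± 0.12 (log2, SE) missed the threshold (adjusted p = 0.0982). The second probe set, 1456676_a_at, read 3.60 to 4.33 in liver and had a change of the opposite sign, 0.22, that did not pass either (adjusted p = 0.524). Both readings lie near or below the array medians, so no liver change of Pfkfb3 is established here.

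Gys2 encodes liver glycogen synthase, which adds glucose to the growing glycogen chain. Its probe set 1424815_at read 9.36, 9.28 and 9.12 in virgin and 10.13, 9.57 and 9.83 in pregnant liver. Every pregnant array lay above every virgin one. The level rose from 9.26 ± 0.12 to 9.84 ± 0.28 (SD, n = 3), a 1.5-fold rise (log2 0.59 ± 0.15, SE, adjusted p = 0.0282), with 0.53 within pools 1 and 2 and 0.71 within pool 3. This call depended on single arrays. The adjusted p ran from 0.0122 to 0.139 over all alternatives. Without virgin liver pool 2 or 3 it was 0.0671 and 0.101, and without pregnant liver pool 1 or 3 it was 0.117 and 0.0544. The call was also lost without both liver pool 3 arrays (adjusted p = 0.139), with the liver arrays alone (0.0586) and with array weights (0.0658).

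Pygl encodes liver glycogen phosphorylase, which releases glucose phosphate from glycogen. Probe set 1417741_at read 11.68, 11.45 and 11.48 in virgin and 11.08, 10.98 and 11.15 in pregnant liver, again with no overlap. The level went from 11.54 ± 0.12 to 11.07 ± 0.085 (SD, n = 3), a 1.38-fold fall (log2 -0.46 ± 0.10, SE, adjusted p = 0.0102). Pools 1 and 2 gave -0.53 and pool 3 gave -0.33. Without virgin liver pool 1 it was -0.39 and did not pass (adjusted p = 0.0528), and over all alternatives the adjusted p was 0.000812 to 0.0544.

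The Pygl window is shown as that of the other falling gene with a RefSeq entry. It lies at chr12:70227634-70227933 of GRCm38.p6, minus strand, and is written in the direction of transcription. Capitals mark the single match, a cyclic AMP response half-site at -44, a motif found in 20.8% of all windows.
Pygl start: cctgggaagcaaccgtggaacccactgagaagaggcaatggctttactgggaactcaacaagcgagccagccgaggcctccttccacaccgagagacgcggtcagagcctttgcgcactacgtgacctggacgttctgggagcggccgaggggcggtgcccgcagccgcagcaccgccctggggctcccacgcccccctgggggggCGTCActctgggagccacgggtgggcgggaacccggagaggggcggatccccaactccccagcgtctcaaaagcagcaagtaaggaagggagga
This window had a GC content of 67.0%, compared with 55.7% for the downstream Pklr window. Of the windows not shown, that of Fbp1 held no match, one of Pcx held an E box at -248, and those of Pfkfb3 held an E box at -53 and half-sites at -112, -62 and -6. An E box occurred in 7.15% of all windows.

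**Figure D2:**
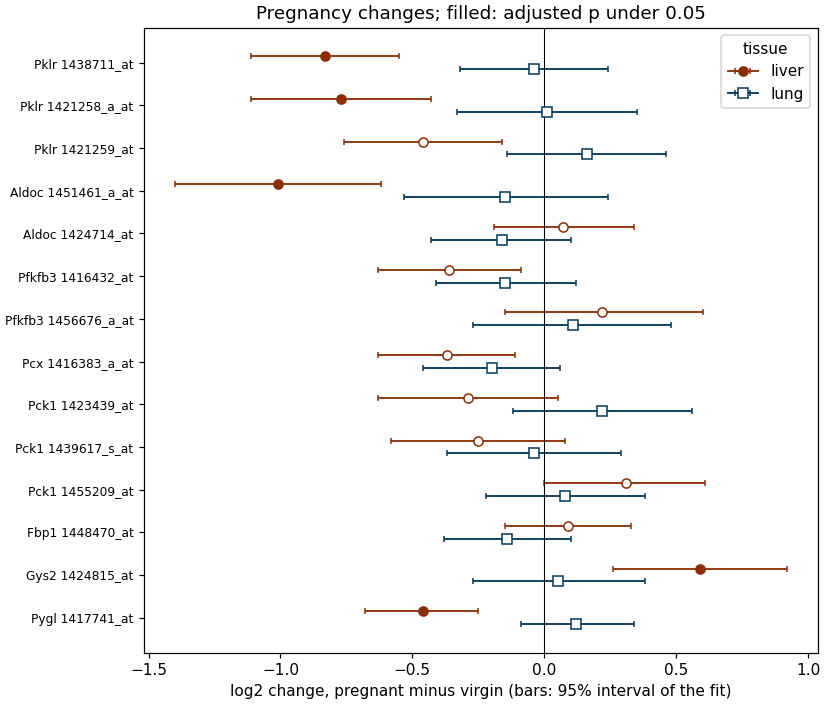
Log2 change from virgin to pregnant (x axis) of each tested probe set (y axis) in liver (circles) and lung (squares), with 95% intervals of the fit to 12 arrays; filled symbols passed at an adjusted p under 0.05. The 5 filled symbols are all liver values, 4 negative and 1 positive.

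The gluconeogenic members did not pass in liver. Pcx encodes pyruvate carboxylase, which makes oxaloacetate from pyruvate in mitochondria. Probe set 1416383_a_at read 10.91, 10.79 and 10.97 in virgin and 10.38, 10.60 and 10.57 in pregnant liver. The groups did not overlap, yet the change of -0.37 ± 0.12 (log2, SE) missed the threshold (adjusted p = 0.0784). It passed with dim probe sets left out (adjusted p = 0.0427), with a variance trend and robust moderation (0.0292) and without pregnant lung pool 1 (0.0482), with a range of 0.0292 to 0.228 over all alternatives.

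The 4 control probe sets on the Pcx transcript, named 5, MA, MB and 3 for their place along it, gave a further view. The 3 probe set read 11.07, 10.99 and 11.17 in virgin and 10.63, 10.75 and 10.78 in pregnant liver, without overlap, and its change was -0.36 (adjusted p = 0.109 in the fit that kept the controls). The MB probe set changed by -0.26, the MA by -0.03 and the 5 by -0.12 (adjusted p = 0.299, 0.925 and 0.704). The tissue difference was also read at each of them. Virgin lung minus virgin liver was -3.70 at the 3 and -3.33 at the MB probe set, -1.06 at the MA and -0.81 at the 5 probe set. The MB probe set had a lung mean of 4.22, below the array medians, so its value is limited by the floor of the array, and the probes of the 4 sets differ in affinity, so these values cannot be ranked along the transcript. The 3 minus 5 difference within an array was 4.46 to 5.18 in liver and 1.87 to 2.20 in lung. The same difference for Gapdh, a check of RNA integrity, was 0.26 to 0.70 in liver and 0.24 to 0.64 in lung.

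**Figure D3:**
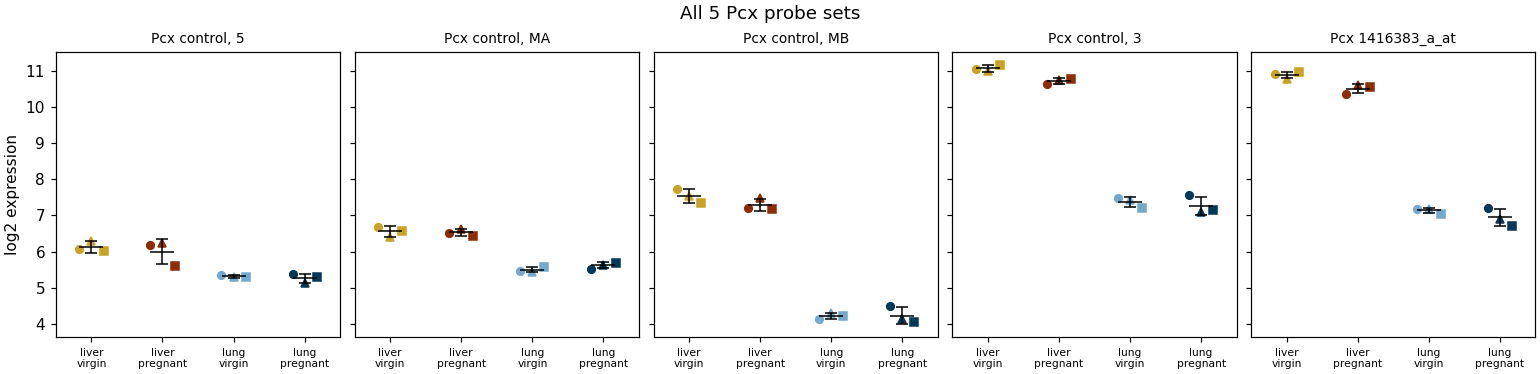
Log2 expression (y axis) of the 4 control probe sets on Pcx, by their place along the transcript, and of the tested probe set 1416383_a_at, in the 4 groups (x axis); circles, triangles and squares are pools 1, 2 and 3, black bars the mean and SD of 3 arrays. Virgin lung minus virgin liver is -3.70 at the 3 control probe set and -0.81 at the 5 control probe set.

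Pck1 encodes the cytosolic carboxykinase that makes phosphoenolpyruvate from oxaloacetate, and its transcript is a classic target of glucagon and fasting. The brightest probe set, 1423439_at, read 11.25, 11.21 and 11.46 in virgin and 11.15, 11.23 and 10.66 in pregnant liver. The groups overlapped, and the pregnant pool 3 array alone was low. The change was -0.29 (95% interval -0.63 to 0.05, adjusted p = 0.328), made up of -0.04 within pools 1 and 2 and -0.79 within pool 3. Probe set 1439617_s_at showed the same split, with -0.04 and -0.67, and had a change of -0.25 (adjusted p = 0.397). The third, 1455209_at, went the other way, from 6.13, 6.29 and 5.86 to 6.32, 6.47 and 6.41, or 0.31, which missed the threshold (adjusted p = 0.23). The Pck1 probe sets gave no common direction in liver.

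The Pck1 window is shown for comparison with Pklr, since it carries the best studied cyclic AMP response element of a gluconeogenic gene. It covers chr2:173152823-173153122 of GRCm38.p6 on the plus strand. The capitals at -90 mark the half-site, which reads CGTCA on this strand. Those at -192 mark an HNF1 half-site, which reads ATTAAC on this strand and was found in 7.1% of windows.
Pck1 start: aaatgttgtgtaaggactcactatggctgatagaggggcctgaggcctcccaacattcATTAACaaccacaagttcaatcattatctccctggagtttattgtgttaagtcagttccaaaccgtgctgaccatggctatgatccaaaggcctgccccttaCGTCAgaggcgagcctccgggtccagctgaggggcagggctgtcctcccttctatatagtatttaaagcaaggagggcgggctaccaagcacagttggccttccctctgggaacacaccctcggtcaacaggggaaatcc
No carbohydrate response element or E box was found in this window.

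Fbp1 encodes the fructose bisphosphatase of liver and kidney, which bypasses the phosphofructokinase step. Probe set 1448470_at read 13.02, 13.02 and 13.0 in virgin and 13.13, 13.09 and 13.11 in pregnant liver. The groups did not overlap, each having an SD of at most 0.0193. The change was 0.09 (95% interval -0.15 to 0.33) and did not pass (adjusted p = 0.7).

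**Figure D4:**
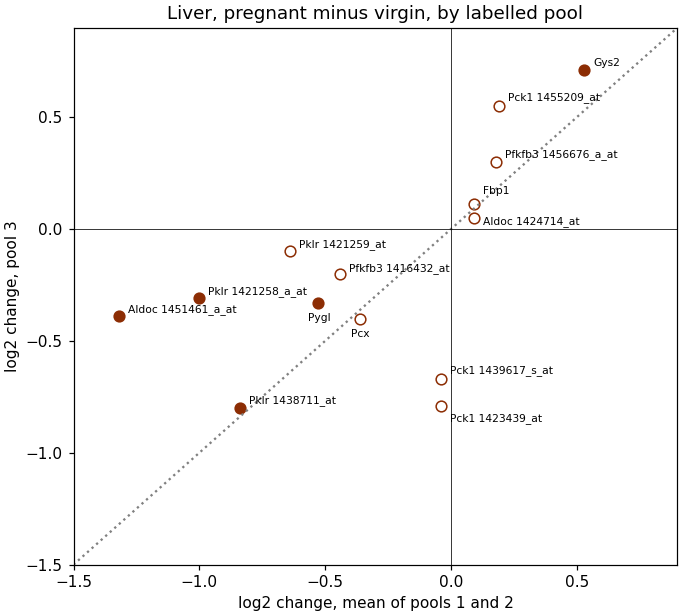
Liver log2 change of each tested probe set within pool 3 (y axis) against its mean change within pools 1 and 2 (x axis); filled symbols passed in the fit to all arrays, and the dotted line marks equal changes. Aldoc 1451461_a_at and Pklr 1421258_a_at lie at -1.32 and -1.0 on the x axis but at -0.39 and -0.31 on the y axis, and Pck1 1423439_at and 1439617_s_at at -0.04 but -0.79 and -0.67.

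In lung none of the 14 probe sets passed, and none had an unadjusted limma p under 0.05. Over all probe sets 0.213% were called in lung. The changes ran from -0.20 for Pcx to 0.22 for Pck1 1423439_at, and the lowest adjusted p was 0.846. That Pck1 probe set had lung means of 2.94 in virgin and 3.16 in pregnant animals, below the array medians. So had the other Pck1 probe sets, Gys2, Pklr 1438711_at, Aldoc 1424714_at and Pfkfb3 1456676_a_at. For these, signal above background is not shown in lung, so a change there could be missed. Arrays did not overlap for 2 of 14 (14.3%, and 15.6% of all probe sets), Aldoc 1451461_a_at and Pklr 1421259_at. Aldoc 1451461_a_at had a virgin lung mean of 6.998 ± 0.004 and a pregnant one of 6.852 ± 0.048 (SD, n = 3), a change of -0.15 (95% interval -0.53 to 0.24). Pygl read 8.21, 8.12 and 8.19 in virgin and 8.16, 8.34 and 8.39 in pregnant lung, a change of 0.12 (95% interval -0.09 to 0.34).

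The test of the difference between the tissues, lung change minus liver change, passed for 2 of the 14 probe sets (14.3%, compared with 3.42% of all). For Pklr 1438711_at the changes differed by 0.79 ± 0.18 (log2, SE, adjusted p = 0.0274), and for Pygl by 0.59 ± 0.14 (adjusted p = 0.0363). Aldoc 1451461_a_at had a larger difference, 0.86 ± 0.26, that did not pass (adjusted p = 0.0908). It passed without pregnant liver pool 3 (1.15, adjusted p = 0.000684) and without both liver pool 3 arrays (1.18, 0.00179). A model term for those arrays (0.0485) and array weights (0.0236) also gave a pass. Its adjusted p ranged from 0.000684 to 0.173 over all alternatives. Gys2 differed by -0.53 (95% interval -1.0 to -0.07, adjusted p = 0.253). Both calls depended on single arrays. Pklr passed in 5 and Pygl in 3 of the 12 fits without 1 array, and the adjusted p ran from 0.00577 to 0.0727 and from 0.00436 to 0.0978 over all alternatives. Pklr lost the call without any of the virgin lung pools, without pregnant lung pool 2 or 3, without virgin liver pool 1 or without pregnant liver pool 2. It was also lost without both liver pool 3 arrays (adjusted p = 0.0727). With quantile normalization over all arrays or within each tissue Pygl also lost the call (adjusted p = 0.0673 and 0.0595). Of the fits without 1 array, Pygl kept it only in those without pregnant lung pool 1, virgin liver pool 2 or pregnant liver pool 3.

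The members were mainly liver transcripts. Between the virgin tissues 13 of 14 probe sets differed, 12 lower and 1 higher in lung, or 92.9%, compared with 55.9% of all probe sets (26.2% higher and 29.7% lower in lung). By the brightest probe set, 7 genes were lower in lung and Pfkfb3 was higher, against 33.0% and 33.7% of all genes. The members were chosen as liver enzymes, so these shares do not test for an excess. Pck1 1423439_at differed by -8.36, Fbp1 by -6.64, Gys2 by -6.35, Pklr 1438711_at by -5.43, Pcx by -3.75, Pygl by -3.36 and Aldoc 1451461_a_at by -1.29, with adjusted p of at most 1.93e-05. All 3 Pck1 probe sets, Gys2 and Pklr 1438711_at had mean lung levels below the array medians, so these differences are limited by the floor of the array. Fbp1 read 5.97 to 6.44 and Pygl 8.12 to 8.39 in lung, clear of that range.

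Pfkfb3 1416432_at showed the opposite order. It read 7.14, 7.17 and 6.97 in virgin lung and 6.8, 7.06 and 6.98 in pregnant lung, above all liver arrays, and virgin lung exceeded virgin liver by 2.23 ± 0.12 (log2, SE, adjusted p = 4.1e-10). Its liver means of 4.86 and 4.5 lie near or below the array medians, so the size of this difference is limited by the floor of the array too. The second probe set gave the reverse sign at dim levels, -0.44 (adjusted p = 0.0422), a call that was kept in 6 of the 12 fits without 1 array. In the order of the 4 group means of its brightest probe set, each member had its lung groups as neighbours, and these did not differ beyond the test. The liver groups were also neighbours and differed for Pklr, Aldoc, Pygl and Gys2, but not beyond the test for Pcx, Pck1, Fbp1 and Pfkfb3.

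The isozymes that other tissues use were read beside the members. Of 11 listed, 9 were measured. All 9 were higher in virgin lung than in virgin liver, by 0.81 to 2.74 (adjusted p of at most 0.000456), where 33.7% of all genes were higher. They were listed as the isozymes of other tissues, so this share does not test for an excess. Pkm, the pyruvate kinase of most tissues other than liver, differed by 2.74, and Pygb, the phosphorylase first found in brain, by 2.23. Aldoa, the muscle aldolase, differed by 2.04 and Gys1, the muscle glycogen synthase, by 0.84. None of the 9 passed the limma test for pregnancy in liver or lung, and at an unadjusted p under 0.05 there were 1 in liver and 0 in lung. Of all genes 11.1% were called in liver and 0.33% in lung. Gys1 had a liver change of 0.23 (adjusted p = 0.18), Pygb one of -0.18 (0.573), Pkm one of -0.19 (0.485) and Aldoa one of -0.17 (0.385).

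The wider pathway was read from 8 lists of 124 genes, of which 111 were measured, each by its brightest probe set. The lists include the 8 members, 4 of which passed in liver. They too were chosen with earlier results of these data known, so their share called does not test for an excess over all genes. In pregnant liver 23 of the 111 fell, 7 rose and 81 did not pass, or 27.0% called, against 11.1% of all 18193 genes (4.92% higher and 6.22% lower). The median change was -0.19, and -0.008 over all genes. In the separate fit without dim probe sets 37 of the 108 genes kept were called. There 19.0% of all probe sets were called, a share over probe sets and not genes, so it is not a like measure. Of the 30 called genes, 19 kept the call in each of the 6 fits that dropped a liver array. The 11 that lost it in at least 1 were Gaa, Got1, Grb14, Gys2, Nr0b2, Nr3c1, Onecut1, Pdhb, Pdk2, Phka1 and Pygl. The sign of all 30 was shared by pool 3 and the mean of the other pools, and for 9 the sizes differed by over 1.5 times. The genes were called from these same arrays, so the shared sign is no separate test.

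**Figure D5:**
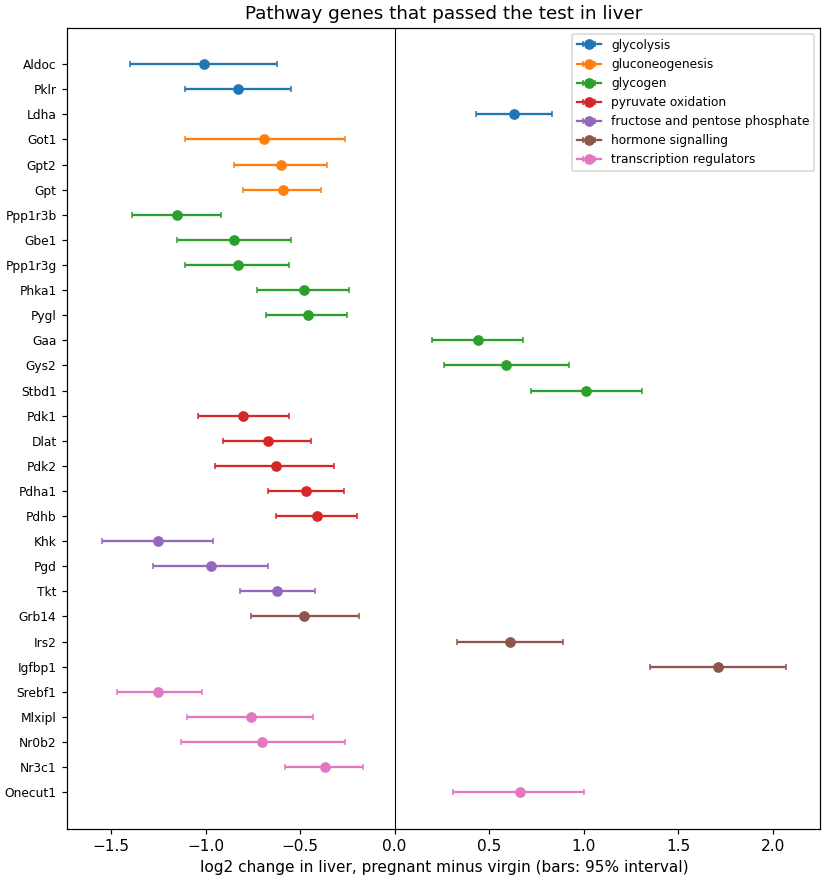
Log2 change from virgin to pregnant liver (x axis) of the 30 pathway genes that passed the test (y axis), coloured by list, with 95% intervals of the fit to 12 arrays. The 23 negative values include Khk at -1.25 and Ppp1r3b at -1.15, and the 7 positive ones include Igfbp1 at 1.71 and Stbd1 at 1.01.

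Of 25 measured glycogen genes, 5 fell, 3 rose and 17 did not pass (32.0% called, against 11.1% of all genes). Ppp1r3b, which encodes the subunit that brings protein phosphatase to glycogen and so activates glycogen synthase, fell by 1.15 ± 0.11 (log2, SE, adjusted p = 7.44e-06). Its relative Ppp1r3g had a change of -0.83 at a pregnant level of 3.80, near background. Gbe1, the branching enzyme, fell by 0.85 ± 0.14 (-1.0 in pools 1 and 2, -0.55 in pool 3), and Phka1, a regulatory subunit of phosphorylase kinase, by 0.48 (-0.57 in pools 1 and 2, -0.30 in pool 3). Stbd1, which tethers glycogen to membranes, rose by 1.01 ± 0.14 (adjusted p = 0.000199), and Gaa, the lysosomal enzyme that digests glycogen, by 0.44. Gaa passed in 3 and Phka1 in 4 of the 6 fits without 1 liver array.

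Of 18 measured glycolysis genes, the members Aldoc and Pklr fell, Ldha rose and 15 did not pass (16.7%, against 11.1% of all genes). Ldha, the lactate dehydrogenase subunit that interconverts pyruvate and lactate, went from 11.52 to 12.15, a rise of 0.63 ± 0.095 (adjusted p = 0.000546). Of 15 gluconeogenesis genes 3 fell and 12 did not pass (20.0%). The 3 were transaminase genes: Gpt and Gpt2, which turn alanine into pyruvate, changed by -0.59 and -0.60, and Got1 by -0.69 (adjusted p = 0.0455, and 0.176 at most without 1 liver array). None of the 5 measured genes that set the activator of phosphofructokinase or restrain glucokinase passed the limma test, and 1 had an unadjusted p under 0.05.

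Of 12 pyruvate oxidation genes 5 fell and 7 did not pass (41.7%, against 11.1% of all genes). Dlat, Pdha1 and Pdhb of the pyruvate dehydrogenase complex changed by -0.67, -0.47 and -0.41. Pdk1 and Pdk2, kinases that switch the complex off, changed by -0.80 and -0.63. Pdk2 had a change of -0.80 in pools 1 and 2 against -0.29 in pool 3, and Pdk1 one of -0.91 against -0.58. Of 8 genes of fructose use and the pentose phosphate path 3 fell and 5 did not pass (37.5%). Khk, the fructokinase, fell from 11.17 to 9.91 (log2 -1.25 ± 0.14, SE, adjusted p = 3.16e-05), Pgd by 0.97 (-1.13 in pools 1 and 2, -0.66 in pool 3) and Tkt by 0.62.

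Among 13 genes of insulin and glucagon signalling, 2 rose, 1 fell and 10 did not pass (23.1%, against 11.1% of all genes). Igfbp1, a secreted binding protein that insulin represses, rose from 9.45 to 11.15 (log2 1.71 ± 0.17, SE, adjusted p = 8.59e-06). Irs2, an adaptor of the insulin receptor, rose by 0.61, and Grb14, an inhibitor of that receptor, fell by 0.48 (adjusted p = 0.0377, and 0.146 at most without 1 liver array), with -0.58 in pools 1 and 2 and -0.27 in pool 3. Among 15 transcription regulators 4 fell, 1 rose and 10 did not pass (33.3%). Srebf1, which drives lipogenic genes under insulin, fell by 1.25 ± 0.11. Mlxipl, whose product ChREBP binds carbohydrate response elements, fell from 9.64 to 8.88 (log2 -0.76 ± 0.16, SE, adjusted p = 0.00595). Binding at the match in the Pklr window, and a part of Mlxipl in the Pklr change, were not tested. Onecut1 rose by 0.66, with 0.39 within pools 1 and 2 and 1.2 within pool 3, and Nr0b2 and Nr3c1 fell by 0.70 and 0.37. Of the 6 fits without 1 liver array, Onecut1 passed in 3, Nr3c1 in 2 and Nr0b2 in 0 (adjusted p of up to 0.148).

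In lung 0 of the 111 genes passed the limma test, and 0.33% of all genes were called there. At an unadjusted limma p under 0.05 there were 12, and no share of all genes is given at that cut. Pdk4, another kinase that switches pyruvate dehydrogenase off, had the largest lung change of the 111, 1.38 (adjusted p = 0.0509), and it passed in 9 of 25 alternative settings. Srebf1 had a lung change of -0.47 (adjusted p = 0.104) and Hk2, a hexokinase, one of 0.33 (adjusted p = 0.781).

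Markers of other cells moved with pregnancy as well, where 11.1% of all genes were called in liver and 0.33% in lung. In liver the neutrophil list (7 measured) had 3 members up, S100a8, S100a9 and Ngp, and a summed linear signal of 360 to 386 in virgin and 827 to 1070 in pregnant arrays. The erythroid list, of interest because red cells also use Pklr, had 5 measured members, with Alas2 up by 1.16 and Epb42 called lower by the test. Its summed signal was 361 to 376 and 464 to 593, a rise carried by Alas2. Slc4a1 (-0.04) and Klf1 (-0.35) did not pass, and the median change of the list was -0.04. Epb42, at 4.06 in virgin and 3.5 in pregnant liver, and Rhag, at 2.27 and 2.36, were both below the array medians. Of 4 measured cycling cell markers Mki67 and Birc5 rose, with a summed signal of 124 to 292 in virgin and 286 to 482 in pregnant liver. Of 5 Kupffer cell markers Timd4 alone fell. The acinar list of 7 had a summed signal of 1157 to 1393 and 534 to 723, carried by Cela1. Of 4 platelet markers Ppbp rose by 2.02. The hepatocyte list had 0 of 8 members called by limma, 1 at an unadjusted p under 0.05 and a median change of 0.08. The part of these cells in the changes of the 8 genes was not tested.

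In lung the neutrophil list had a summed signal of 4981 to 7241 in virgin and 9275 to 17148 in pregnant arrays, with S100a9 called. None of the cycling cell, platelet and hepatocyte markers passed in lung, but at an unadjusted limma p under 0.05 there were 3 of 4, 3 of 4 and 3 of 8. Their summed signals in virgin and pregnant lung were 211 to 318 and 135 to 170 for cycling cells, 2330 to 2816 and 2633 to 5509 for platelets, and 165 to 192 and 176 to 314 for hepatocytes. The adipocyte list, included because fat expresses Pck1 and Pcx, had 0 of 7 measured members called by limma and 1 at an unadjusted p under 0.05, a summed signal of 279 to 357 and 345 to 582, and Adipoq at 3.45 in virgin and 4.20 in pregnant lung. Their part in the lung values was not tested. No share of all genes is given here for the unadjusted marker counts in lung or liver, so these cannot be read as an excess.

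The genes whose 12 values ran most closely with each member were found by Pearson correlation over the 12 arrays, which is dominated by the gap between the tissues and is given as a description. Closest to Pklr were Gpt, Pgrmc1 and Acat1 (r = 0.9983, 0.9982 and 0.9981), and closest to Pygl were Acsm5, Sucnr1 and Pon1 (0.9984, 0.9982 and 0.9981). Closest to Gys2 were Amy1, Crp and Rdh16f2 (0.9987, 0.9984 and 0.9984), and closest to Pcx were Pm20d1, Plcxd2 and Tpi1 (0.9992, 0.9988 and 0.9987). Fbp1 ran with Apob, Ces1c and Ambp (0.9997, 0.9997 and 0.9996) and Pck1 with Cyp3a25, Ttr and Cmah (0.9993, 0.9991 and 0.9991). Pfkfb3 ran with Mgp, Zeb2 and Galnt3 (0.9972, 0.9972 and 0.997). Aldoc, with its smaller tissue gap, had the lowest values, with Spryd7 at 0.9654, Rgl3 at 0.9634 and Dpp4 at 0.9611.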

How the data were processed

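The deposited values are log2 expression values per probe set, which the authors computed with RMA of the affy package, per the submitters' processing notes. Versions, and which arrays were normalized together, are not given in the sources used here. Of 45101 probe sets, 64 controls were left out, and of the remaining 45037 the platform annotation gave 34945 a single symbol, 932 several and 9160 none. Group means of the 4 groups and a shared spread were estimated per probe set from all 12 arrays (limma 3.58.1, R 4.3.3; 8 residual and 6.59 prior degrees of freedom), p-values were adjusted over all probe sets, and the steps were tested on simulated data. The brightest probe set stood for a gene in the wider lists. Named genes were the members, their isozymes, and up to 4 called genes of largest change per list, or that of smallest p; Gaa, Phka1, Pdhb, Nr3c1 and the motifs were added after values were seen. The members and lists were chosen with earlier results of these data known. Same-numbered pools of virgin and pregnant animals had deviations that correlated at -0.083 to 0.114, so pool number was not used as a block. Promoter windows are RefSeq's (GRCm38.p6).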

Additional observations from a re-analysis of the deposited data

Results flagged for a closer look

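Among the members, 2 pregnancy changes differed between the tissues by the test of the difference itself. The lung change minus the liver change was 0.79 for Pklr 1438711_at (log2, limma adjusted p = 0.0274), which had changes of -0.04 in lung and -0.83 in liver. It was 0.59 for Pygl 1417741_at (adjusted p = 0.0363), with 0.12 in lung and -0.46 in liver. The lung level of the Pklr probe set, 4.42 in virgin and 4.38 in pregnant animals, lies below the array medians, where signal above background is not shown. Both calls depended on single arrays: of the 12 fits without 1 array, Pklr passed in 5 and Pygl in 3, and at an adjusted p under 0.01 neither passed. Pygl also lost the call with quantile normalization over all arrays (adjusted p = 0.0673) or within each tissue (0.0595).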

How the results depend on the processing

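With 3 arrays a group and dim lung signal for Pklr, Pck1 and Gys2, small changes are not detectable. The count of 5 member probe sets called in liver became 3 with the liver arrays alone and 3 at an adjusted p under 0.01, and was 4 to 6 without 1 array; the other settings kept it within 1.5 times. The count of wider-list genes in liver, 30, became 19 at an adjusted p under 0.01 and was 22 to 30 without 1 array. In lung no member passed in any setting. Of the wider lists 1 gene passed in lung with dim probe sets left out, with the brightest probe set per gene, with arrays centred on their medians, with a variance trend, and with the replicate block over all arrays or within tissue, 3 passed with array weights, and 0 to 2 without 1 array. The count of 2 for the difference between tissues became 1 with either quantile normalization, 1 with the replicate block over all arrays or within tissue, 4 with array weights and 0 at an adjusted p under 0.01, and was 0 to 3 without 1 array. For the virgin tissues the count of 13 became 8 with the brightest probe set per gene, which tests only 8, and was 12 to 13 without 1 array. By the correlation of deviations, pool numbers did not pair the arrays, although both liver pool 3 arrays shared a low poly-A spike-in signal. The replicate block left 5 member probe sets called in liver. The difference lost with it was that of Pygl (adjusted p = 0.0564 over all arrays and 0.0806 within tissue). Of the single probe set results, 44 lost and 17 gained a call in some setting, counted per setting, and 0 reversed. The cause of these shifts was not tested beyond fewer arrays or genes. The fit with control probe sets kept was chosen after seeing the data.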
